A study of Mus musculus with 8 samples.

Results

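The miR-130 and miR-301 family comprises miRNAs that share 1 seed, the stretch near the 5′ end that pairs with target transcripts. On the DNA chip examined here it was covered by 3 of 200 probes, mmu-miR-130a, mmu-miR-130b and mmu-miR-301, and these were taken by their names. The family was picked for description because miR-130a and miR-130b had the lower signal at the older age, so that the age values below are a description and carry no test. The levels in different tissues did not enter that choice. The tissue tests below do share their residual spread with the age contrast behind it, so they are not independent of it. That contrast favours a small residual spread, so the tissue p-values of miR-130a and miR-130b can be too small.

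The data came from lung, liver, kidney and heart of male ICR mice, an outbred stock, at 14 months (elderly) and at 1 month (young). Small RNA of each tissue and age was labelled directly and hybridized in 1 colour to 1 chip, which gave 8 chips in all. Apart from age, no treatment or allele distinguishes the groups in the labels. No group had a replicate, and nothing in the labels ties tissues to individual mice.

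miRNAs guide the silencing machinery to complementary sites, usually in the 3′ untranslated region of a transcript, and miRNAs with the same seed can act on overlapping sets of transcripts. miR-130a is known from vascular endothelium, where it represses the homeobox genes Hoxa5 and Meox2 (Gax) and favours the formation of vessels. miR-130 is also known to repress Pparg, the master regulator of fat cell differentiation, and the family is studied in the remodelling of lung vessels in pulmonary hypertension. miR-301a is processed from an intron of Ska2, a gene of the spindle and kinetochore.

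The mature sequences are shown because the seed defines the family. The capitals mark bases 2 to 8 counted from the 5′ end. The chip names give no arm, and the 3p product, which carries the shared seed, is the one shown for each probe.
mmu-miR-130a-3p: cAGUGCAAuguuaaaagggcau
mmu-miR-130b-3p: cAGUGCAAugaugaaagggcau
mmu-miR-301a-3p: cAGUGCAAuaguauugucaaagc

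All 3 probes matched a mature miRNA in the RefSeq annotation of GRCm38.p6. The seed AGUGCAA, whose complementary site reads UUGCACU, was found in 7 of 1679 mature names (0.417%), of which 3 had a probe. The others were miR-130c, miR-721, miR-6341 and miR-6389. The count covers the names in the annotation used. Mature miR-301b-3p was missing from it, so miR-301b could not be counted, and its absence from the list says nothing about its seed. Mature miR-130a-3p and miR-130b-3p had 20 of 22 positions identical and differed by U11A and A13G, with miR-130a first and positions counted from the 5′ end. miR-301a-3p shared its first 9 bases with both and was identical to miR-130a-3p at 12 of 22 positions. Cross-hybridization between the probes for miR-130a and miR-130b was not tested.

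The genes lie on different chromosomes. Mature miR-130a-3p was at chr2:84741116-84741137 on the minus strand, with no other annotated gene over its hairpin. Mature miR-130b-3p was at chr16:17124071-17124092 on the minus strand, inside the gene 2610318N02Rik, and 257 bases separated its hairpin from that of Mir301b. Mature miR-301a-3p was at chr11:87113054-87113076 on the plus strand, within Ska2.

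Values before scaling are intensities in units of the scanner after subtraction of the chip's background. A signal of 10 units was taken as the limit of detection. The liver chips were dim, with summed intensities of 5469 units (elderly) and 3308 units (young) against 13489 to 36449 units on the other chips, and 57 and 53 miRNAs reached the limit there against 88 to 110 elsewhere. The hepatocyte miRNA miR-122a had 1973 units in elderly and 1193 units in young liver and at most 5.72 units on the other chips. The 5 muscle miRNAs summed to 6372 units in elderly and 9095 units in young heart and to at most 123 units elsewhere, although miR-206 was near 0 on all chips. The epithelial miR-200 miRNAs summed to 668 units in elderly and 495 units in young lung and to 406 units in elderly and 431 units in young kidney, against at most 27.0 units in liver and heart. Precision is limited throughout by having 8 chips.

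Before scaling, the elderly signals of the family were below the young ones in 10 of the 11 combinations of miRNA and tissue that reached the limit on at least 1 chip. The exception was miR-130a in liver. In heart, miR-130a had 92.0 units in the elderly and 217 units in the young sample, 57.6% lower. In lung it had 342 units in the elderly and 398 units in the young sample, 14.2% lower. In kidney it had 111 units in the elderly and 135 units in the young sample, 17.7% lower. The chips differed too, since the median log2 change of all miRNAs that reached the limit on both chips was -0.46 in heart, 0.19 in lung and 0.11 in kidney. Most of these miRNAs were thus lower in the elderly heart sample, and most were higher in elderly lung and kidney. In liver, miR-130a had 53.5 units in the elderly and 48.4 units in the young sample, while the median log2 change of the 50 miRNAs that reached the limit on both liver chips was 0.86.

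miR-130b was lower in the elderly sample of all 4 tissues before scaling. It had 27.4 units in elderly and 63.2 units in young heart, 56.6% lower, and 73.8 units in elderly and 104 units in young lung, 29.0% lower. In kidney it had 29.7 units in the elderly and 40.8 units in the young sample, 27.3% lower. Liver had the narrowest gap of the 4, and its signals stood just above the limit. They were 11.6 units in the elderly and 14.1 units in the young sample, 17.2% lower.

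miR-301 had signals close to the background and reached 10 units on 5 of 8 chips. In kidney it had 11.8 units in the elderly and 23.6 units in the young sample. In lung it had 16.1 units in the elderly and 28.0 units in the young sample, 42.4% lower. In heart, the elderly sample was below the limit at 7.09 units and the young one above it at 24.3 units. In liver, with 2.16 units in the elderly and 3.34 units in the young sample, neither chip reached it, and no fold is given.

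**Figure D1:**
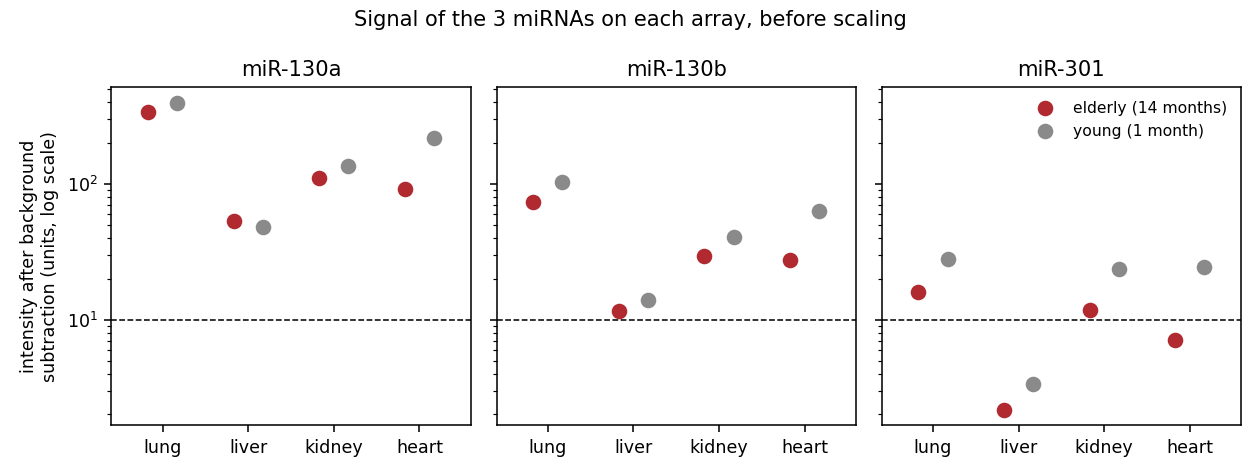
Intensity after background subtraction (units, log scale) of each miRNA on the 8 chips, with the elderly sample (red) left of the young one (grey) in each tissue and 1 chip per point. The dashed line is the limit of 10 units, and levels are not compared between panels because probes differ. The elderly point is below the young one everywhere but for miR-130a in liver, where they are at 53.5 and 48.4 units.

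Chips differed in brightness, so each change was also set against that of the other miRNAs of the tissue. Among the miRNAs that reached the limit on both chips before scaling, miR-301 had the lowest change of 84 in kidney and the third lowest (rank 3) of 105 in lung. miR-130b ranked 2 of 50 from the lowest in liver, 3 of 89 in heart, 4 of 84 in kidney and 7 of 105 in lung. miR-130a ranked 2 of 89 in heart, 8 of 50 in liver, 13 of 84 in kidney and 16 of 105 in lung. All 10 ranked values lay in the lowest 16.0% of their tissue. Relative to the tissue's median, the log2 changes of miR-130a were between -0.78 (heart) and -0.39 (kidney), those of miR-130b between -1.13 (liver) and -0.57 (kidney), and those of miR-301 were -1.11 in kidney and -0.99 in lung.

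**Figure D2:**
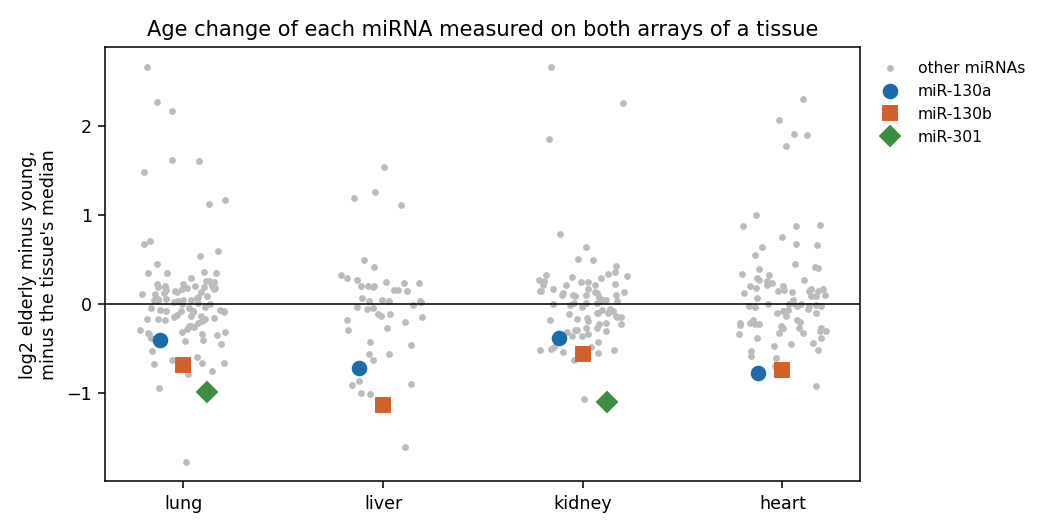
Difference in log2 intensity before scaling, elderly minus young, less the tissue's median (y axis), for every miRNA that reached 10 units on both chips of the tissue. Coloured symbols are the 3 family members and grey points the other miRNAs, spread sideways for visibility, and the members lie between -1.13 and -0.39. miR-301 is missing in liver and heart, where a chip was below the limit.

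The members were compared with each other on the same chips, where brightness cancels out. The log2 change of miR-130b minus that of miR-130a was -0.27 in lung, -0.42 in liver, -0.18 in kidney and 0.03 in heart. The log2 change of miR-301 minus that of miR-130a was -0.57 in lung and -0.72 in kidney. In lung and kidney the decrease before scaling was thus smallest in miR-130a and largest in miR-301. The order depended on the background step. With normexp, a model-based background correction, followed by quantile scaling, the log2 changes in lung were -0.48 for miR-130a, -0.43 for miR-130b and -0.16 for miR-301, and those in kidney were -0.35 for miR-130a, -0.23 for miR-130b and -0.21 for miR-301. These are single values with no spread to set them against.

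Quantile scaling over the 8 chips gives every chip the same distribution of signals. After it, miR-130a was lower in the elderly sample of each tissue, with 90.8 scaled units in elderly and 163 in young heart, 330 in elderly and 510 in young liver, 179 in elderly and 270 in young lung, and 103 in elderly and 145 in young kidney. Its log2 changes were -0.84 in heart, -0.63 in liver, -0.59 in lung and -0.49 in kidney, with a mean of -0.64 ± 0.15 (SD over 4 tissues). The log2 changes of miR-130b were -0.90 in liver, -0.88 in lung, -0.67 in heart and -0.55 in kidney, with a mean of -0.75 ± 0.17 (SD over 4 tissues). The contrast that chose these 2 miRNAs favours a small spread between tissues, so the narrow SDs are part of the choice. Without scaling the means were -0.40 ± 0.59 for miR-130a and -0.61 ± 0.41 for miR-130b (SD over 4 tissues). After scaling, heart was thus the tissue with the lowest value for miR-130a and not for miR-130b.

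After scaling, miR-301 was detected on 4 chips, namely both kidney chips, young lung and young heart. Its log2 change in kidney was -0.73. It was at least 1.55-fold lower in elderly than in young lung and at least 2.43-fold lower in elderly than in young heart, with the elderly value set to the limit of 10 scaled units. These bounds hold for this scaling, and with median scaling the log2 changes were -0.51 in lung and -0.60 in heart. With liver, below the limit on both chips, entered as no change, the mean over the 4 tissues was -0.66 ± 0.52 (SD).

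miR-130a and miR-130b were chosen by the age contrast over the 4 tissues. In that contrast, fitted with limma with tissue as a block, 3 of 96 miRNAs tested (3.12%) were called lower in the elderly samples, namely miR-130a, miR-130b and miR-103, and miR-301 was not called. Before scaling, miR-103 was lower in elderly lung and heart. It was higher in elderly kidney, at 246 units against 197 units in young, and in elderly liver, at 27.3 units against 20.2 units. After scaling, its log2 change in kidney was -0.44. In the same contrast 4 were called higher, namely miR-29a, miR-29b, miR-29c and miR-142-3p. Nothing can be read from that count about the family, since it selected the members. The call also varied with the chips and the scaling. No member was called without the lung, the kidney or the heart pair, or with no filter on dim miRNAs, and without scaling only miR-301 was. miR-130a also lost its call without the liver pair, with 75th percentile scaling over all probes and with a limit of 5 units, and miR-130b lost its call with normexp. miR-130a and miR-130b were among 13 miRNAs lower in every tissue after scaling, of 66 detected on all 8 chips after scaling (19.7%). Before scaling, 46 reached the limit on all 8 chips. The 13 include miR-19a and miR-152, which were then below the limit on both liver chips. A lower value in every tissue is likewise a pattern the members were chosen on.

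The direction was set against the processing. miR-130b was lower in the elderly sample of every tissue under each of 12 combinations of scaling, background correction, input table and detection limit. miR-130a was lower in lung, kidney and heart under all 12 and in liver under 11, the exception being no scaling. The mean log2 change ranged from -0.81 to -0.40 for miR-130a and from -1.01 to -0.38 for miR-130b over those 12. miR-301 was lower in lung, kidney and heart under 11 and below the limit on all chips with a limit of 30 units. In liver miR-301 was lower under 6 and at 0 under 6 of the 12. These combinations share the same 8 chips and do not measure the spread between mice.

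**Figure D3:**
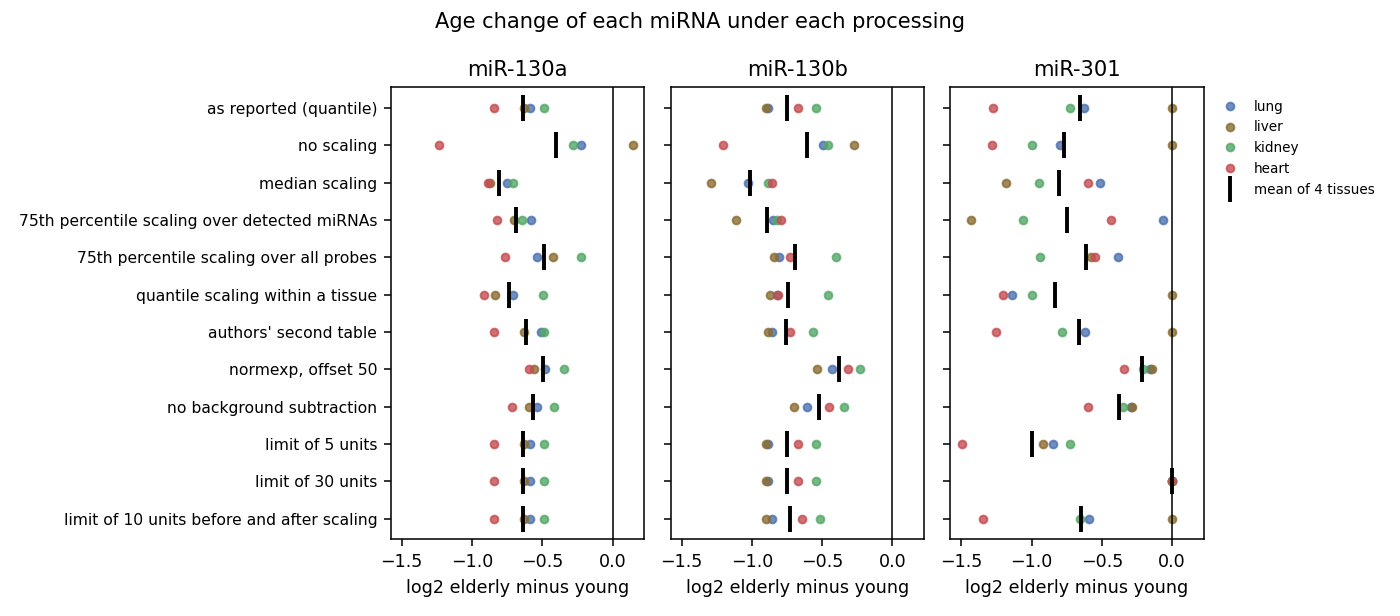
Difference in log2 signal, elderly minus young (x axis), of each miRNA in each tissue (coloured points) and its mean over the 4 tissues (black bar) under the processing used for the values reported and 11 others (y axis). Nearly all points are left of 0. The liver value of miR-130a without scaling, 0.14, is to the right of it, and values at 0 for miR-301 are those with both chips below the limit.

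The level of the family by tissue was compared over the 2 chips of each tissue with limma, with age as a term. The p-values rest on how far the age change varies between tissues, not on a spread between replicate mice, as no tissue and age had a replicate. The choice of miR-130a and miR-130b favoured a small value of that variation, which makes their tests pass more easily. In all, 72 of 96 miRNAs (75%) differed between tissues by the moderated F test. miR-130a differed (F = 33.1, adjusted p = 0.000953 from limma), as did miR-130b (F = 8.41, adjusted p = 0.0169 from limma), and miR-301 did not pass (F = 3.77, adjusted p = 0.0821 from limma). miR-130b no longer passed without the liver pair (adjusted p = 0.207) or the kidney pair (0.0575), and miR-301 passed without the heart pair (0.0393). Of the 18 pairs of tissues for the 3 members, 9 differed (50%), against 247 of 576 (42.9%) over all miRNAs tested, so that the family's share was near the background.

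After scaling, miR-130a was highest in liver, followed by lung, with kidney and heart lowest. Its mean log2 level was 8.68 ± 0.44 in liver, 7.78 ± 0.42 in lung, 6.93 ± 0.35 in kidney and 6.93 ± 0.59 in heart (SD, n = 2 chips each). Here and below, the 2 chips of a tissue differ in age, so the SD reflects the age change and is no replicate spread. Liver exceeded lung 1.86-fold (adjusted p = 0.0123 from limma), kidney 3.36-fold and heart 3.37-fold (adjusted p = 0.000821 from limma for each). Lung exceeded kidney 1.80-fold (adjusted p = 0.0149 from limma) and heart 1.81-fold (adjusted p = 0.0146 from limma). Kidney and heart differed by 0.01 on the log2 scale, with a 95% interval of -0.48 to 0.49.

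The place of liver in this order depended on the scaling. Before scaling, miR-130a averaged 51.0 units in liver, 370 units in lung, 123 units in kidney and 154 units in heart, and liver was the lowest of the 4. Without scaling, the log2 level in lung minus that in liver was 2.86 instead of -0.90, that in liver minus that in kidney -1.27 instead of 1.75, and that in liver minus that in heart -1.47 instead of 1.75. Liver had the highest mean under the other 10 processings tried between tissues. With 75th percentile scaling over all probes, however, lung minus liver was -0.28 and did not pass (adjusted p = 0.313 from limma), and liver minus kidney was 0.74 (adjusted p = 0.0191 from limma). The higher level in lung than in kidney and in heart held its sign under all 11. It passed the test against kidney under 9 and against heart under 10.

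miR-130b gave a similar order with smaller differences. Its mean log2 level after scaling was 6.24 ± 0.64 in liver, 5.59 ± 0.62 in lung, 5.48 ± 0.47 in heart and 5.23 ± 0.39 in kidney (SD, n = 2 chips each). Liver was higher than kidney 2.01-fold (adjusted p = 0.00811 from limma), heart 1.69-fold (adjusted p = 0.0251 from limma) and lung 1.57-fold (adjusted p = 0.0423 from limma). The excess over lung was lost without the kidney pair (adjusted p = 0.0686) or the heart pair (0.0872), with 75th percentile scaling over all probes (0.188) and with normexp (0.0617). The excess over kidney was lost with 75th percentile scaling over all probes (0.0522). After quantile scaling, no pair among lung, heart and kidney passed the test for miR-130b. The log2 difference was 0.36 for lung minus kidney (95% interval -0.14 to 0.85), 0.11 for lung minus heart (-0.39 to 0.60) and -0.25 for kidney minus heart (-0.75 to 0.24). Before scaling, miR-130b averaged 12.8 units in liver, 88.9 units in lung, 45.3 units in heart and 35.3 units in kidney, and liver was again the lowest. Without scaling, lung also exceeded kidney by 1.33 (adjusted p = 0.000247 from limma) and heart by 1.07 (adjusted p = 0.00326 from limma) on the log2 scale. These 2 values include the brightness of the chips, and 93 of 96 miRNAs (96.9%) then differed between tissues. The lung chips summed to 36449 units (elderly) and 30313 units (young). The kidney chips summed to 15709 and 13489 units, and the heart chips to 20829 and 27894 units.

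miR-301 did not follow that order. After scaling it was highest in kidney, at a mean log2 level of 4.31 ± 0.52, then in heart at 3.96 ± 0.90 and in lung at 3.64 ± 0.44 (SD, n = 2 chips each), the elderly heart and elderly lung values being at the limit, and both liver values were at the limit. With values at the limit entered as the limit, the fitted log2 level in liver minus that in kidney was -0.99 (adjusted p = 0.0390 from limma), and no other pair passed. That value is no bound. On the dim liver chips, 10 units before scaling correspond to 46.3 (elderly) and 55.6 (young) scaled units, above the scaled values of miR-301 in kidney, 15.5 in the elderly and 25.6 in the young sample. With median and 75th percentile scaling over detected miRNAs, the log2 level in liver minus that in kidney was 0.12 and 0.19. Before scaling, miR-301 averaged 22.1 units in lung, 17.7 units in kidney, 15.7 units in heart and 2.75 units in liver.

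**Figure D4:**
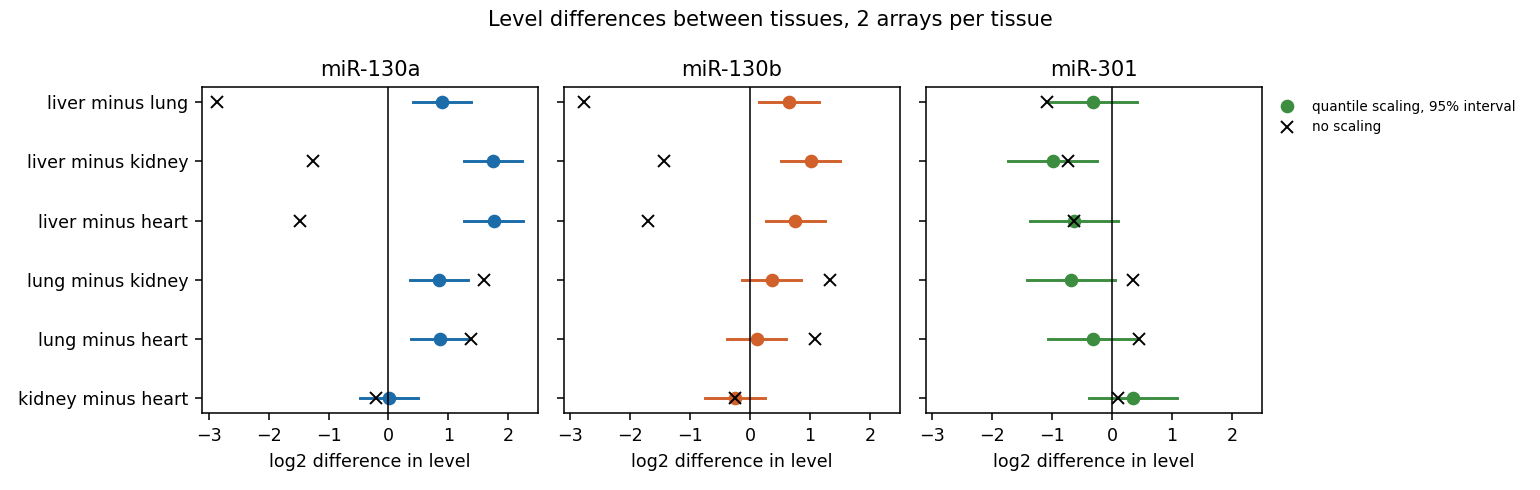
Difference in log2 level (x axis) between the 2 tissues of each pair (y axis, first minus second) for each miRNA, as circles with 95% intervals after quantile scaling and as crosses without scaling, from limma with 2 chips per tissue. For miR-130a and miR-130b the liver pairs change sign, as with 1.75 and -1.27 for miR-130a in liver minus kidney, while lung minus kidney and lung minus heart are to the right of 0 in both. Values of miR-301 at the limit enter as the limit.

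Over the 8 chips, the scaled log2 values of miR-130a and miR-130b had a Pearson correlation of 0.88 (Spearman 0.77), while that of miR-301 was -0.32 with miR-130a and -0.05 with miR-130b. Without scaling, the Pearson correlation was 0.98 for miR-130a with miR-130b, 0.87 for miR-130a with miR-301 and 0.93 for miR-130b with miR-301. The unscaled values share the brightness of each chip, and 4 of 8 scaled values of miR-301 were at the limit. The correlations describe 8 chips of 4 tissues and have no test.

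The miRNAs whose scaled values over the 8 chips were most like those of miR-130a were miR-31 (Pearson 0.90, Spearman 0.79), miR-130b as above and miR-26b (0.86 and 0.90). miR-31 had 75.4 scaled units in elderly and 173 in young liver and at most 31.1 elsewhere. Before scaling it had 19.1 units in elderly and 19.8 units in young liver, fewer than the 55.8 units of each lung sample. Its correlation with miR-130a without scaling or without the liver chips was not tested. For miR-130b, those after miR-130a were miR-181b (Pearson 0.87, Spearman 0.80) and miR-16 (0.77 and 0.60), which is known to repress genes of the cell cycle. For miR-301, they were miR-18 (0.84 and 0.74) and miR-106b (0.83 and 0.75), both of the miR-17-92 cluster and its paralogs, and miR-424 (0.76 and 0.77).

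miRNAs with a seed that overlaps that of the family were set beside it. miR-19a and miR-19b of the miR-17-92 cluster, known for promoting proliferation and survival of cells, share GUGCAA with it. miR-152, of the miR-148 and miR-152 family that is known to repress the DNA methyltransferase Dnmt1, shares CAGUGCA. They are shown, again with bases 2 to 8 in capitals, to make the shift by 1 base visible.
mmu-miR-19a-3p: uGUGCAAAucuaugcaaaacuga
mmu-miR-19b-3p: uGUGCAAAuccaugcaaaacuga
mmu-miR-152-3p: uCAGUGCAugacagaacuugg

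All 3 had a lower mean over the 4 tissues in the elderly samples, with a median log2 change of -0.41, and none was called by limma. Over all 96 miRNAs tested the median was -0.05, and 55 had a lower mean. miR-152 had 28.0 units in elderly and 52.5 units in young heart and 51.8 units in elderly and 62.1 units in young lung before scaling. miR-19b had 50.4 units in elderly and 99.0 units in young heart, and 78.9 units in elderly and 80.7 units in young kidney, where the ages were nearly alike. miR-19a had 21.8 units in elderly and 37.1 units in young heart and 38.7 units in elderly and 42.3 units in young lung. In liver miR-19a and miR-152 were below the limit on both chips before scaling. Their scaled log2 changes there, -0.43 and -0.67, still entered the means and the median above.

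Of the miR-17-92 cluster and its paralogs, 9 of 10 listed miRNAs were on the chip and tested, and 7 had a lower mean in the elderly samples. The median log2 change was -0.34, and none was called in either direction. The list includes miR-19a and miR-19b, and in liver 5 of the 9 reached the limit on both chips before scaling.

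Markers of cell types that the tissues hold were read on the same chips. In bulk tissue, fewer cells of a type and less RNA per cell cannot be told apart. The leukocyte miRNAs had a median log2 change of 0.34 over the 4 tissues, with 0 of 3 tested lower and miR-142-3p called higher. They summed to 272 units in elderly and 170 units in young lung, and to 110 units in elderly and 86.7 units in young heart, with miR-155 below the limit on every chip. In liver they summed to 11.5 units in the elderly and 12.0 units in the young sample, and none reached the limit. The scaled log2 changes there, 1.18 for miR-142-3p and -0.63 for miR-142-5p, still entered the means and the call. miR-150 was below the limit in liver and kidney and entered there as no change. The 2 endothelial miRNAs had a median log2 change of -0.04 and summed to 3296 units in elderly and 2770 units in young lung and to 743 units in elderly and 1036 units in young heart. Scaling gave miR-126-3p the same value, 2083 scaled units, on both lung chips, while its log2 change there before scaling was 0.25. miR-126-5p was below the limit in liver and kidney and entered there as no change. The median near 0 thus partly reflects the scaling and the limit. For the 4 miRNAs of smooth muscle and fibroblasts the median was -0.07 over the tissues. The scaled median of the 4 was -0.32 in lung, -0.06 in kidney and 0.43 in liver. In liver only 2 of them reached the limit on both chips before scaling. In heart, where they summed to 878 units in the elderly and 1682 units in the young sample, all 4 were lower, with a median of -0.48 after scaling, beside -0.84 for miR-130a and -0.67 for miR-130b there. The epithelial miR-200 list had a median of -0.22, with 2 of 4 lower. In lung its median was 0.19, and in kidney, where all 4 were lower, it was -0.25. In liver, where miR-200a had 4.21 units in the elderly and 9.20 units in the young sample and miR-200b 3.17 units in the elderly and 8.37 units in the young sample, below the limit before scaling, their scaled log2 changes were -1.44 and -2.01. The part of these cell types in the values of the family was not tested.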

How the data were processed

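Small RNA was labelled directly and hybridized to chips of 200 probes, and the authors deposited the signal intensity in 2 tables, of which the second lies lower by 1 constant per chip. The sources used here do not give the scanner software, spot summary or background step. That constant was subtracted from the first table, followed by quantile scaling over the 8 chips, a floor at 10 units and conversion to log2.

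Ages and tissues were compared with limma (version 3.58.1, R version 4.3.3) on the miRNAs that 4 or more chips detected, with tissue as a block or age as a term, Benjamini-Hochberg adjustment (for tissue pairs over all miRNAs and pairs together) and a threshold of 0.05. The fits were tested on simulated data. Values at the floor give bounds only. Chips of the same age could come from 1 mouse.

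The members, the lists and the tests were chosen with earlier results of these data known. The miRNAs named are the members, for each the 3 with the highest Pearson correlation, those called lower with them, those with an overlapping seed, and list members with the brightest signal. miR-31, miR-155 and miR-206 are described further after their values were seen. Alternatives were no scaling, median, 75th percentile and within-tissue quantile scaling, the authors' second table, normexp, no background subtraction, limits of 5 and 30 units, other filters and models, and leaving out each tissue. A limit of 10 units applied also before scaling was added after seeing the data. Sequences are from RefSeq.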

Additional observations from a re-analysis of the deposited data

Results flagged for a closer look

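After scaling, the changes with age ran in opposite directions in some pairs of tissues for 3 of the miRNAs named. With 1 chip per age and tissue, these differences were not tested. For miR-19b the scaled log2 change was 0.04 in kidney and -1.33 in liver, a difference of 1.37. Before scaling it was -0.03 in kidney and -0.04 in liver, so the 2 tissues were then nearly alike. For miR-31 the scaled log2 change was 0.38 in kidney and -1.20 in liver, a difference of 1.58, and before scaling that in liver was -0.05. For miR-106b the scaled log2 change was 0.06 in liver and -0.36 in lung, a difference of 0.42. In the first 2 of these, the liver signals before scaling were between 19.1 and 21.9 units, and miR-31 had 10.7 units in elderly and 9.12 units in young kidney. For miR-106b they were 9.28 units in elderly and 8.69 units in young liver, below the limit.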

How the results depend on the processing

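Where a value changed, the cause was not tested. Counts lower in every tissue are out of the miRNAs detected on all 8 chips, a total that varied with the processing. For the values reported it was 13 of 66. Without scaling, 403 miRNA and tissue pairs differed, as did 93 of 96 miRNAs between tissues, and 2 of 46 miRNAs were lower in every tissue. The mean log2 change of miR-130a was then -0.40 and its liver change 0.14, and the F of miR-301 was 3.51 (adjusted p = 0.0153 from limma). The log2 differences for lung minus liver, liver minus kidney and liver minus heart were then 2.86, -1.27 and -1.47 for miR-130a and 2.78, -1.44 and -1.70 for miR-130b. With median scaling, 13 miRNAs were called lower and 32 were lower in every tissue, the means of miR-130a and miR-130b were -0.81 and -1.01, and miR-301 in liver minus kidney was 0.12. With 75th percentile scaling over detected miRNAs, 23 were lower in every tissue and miR-301 in liver minus kidney was 0.19. Over all probes, it gave 6 lower in every tissue, a mean of -0.49 for miR-130a and an F of 4.07 for miR-130b (adjusted p = 0.0621). Quantile scaling within a tissue gave 8 called lower. normexp and no background subtraction each gave 21 lower in every tissue, with means of -0.38 and -0.52 for miR-130b, and without subtraction the F of miR-301 was 12.2. A limit of 5 units gave an F of 13.7 for miR-301, and a limit of 30 units 5 miRNAs called lower and a mean of 0 for miR-301. With no filter on dim miRNAs, limma called 0 lower (10 at an unadjusted p under 0.05), 43 differed between tissues and 152 pairs did. With the tissue block left out (no replicate block), limma called 0 lower (1 unadjusted), and the methods' t-test, unpaired over the tissues, gave 0 (2 unadjusted). Leaving out each tissue gave 0 to 3 called lower, 13 to 23 lower in every tissue, 112 to 125 pairs that differed, and F values of 2.47 to 7.32 for miR-130b and 5.86 to 6.85 for miR-301. Single chips, dim liver signals and unknown sharing of mice limit all values.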
